A study of Mus musculus with 33 samples.

Results

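Dividing cells need a set of proteins that condense the chromosomes, build the spindle and hold each chromosome to it, and 41 genes that encode such proteins were followed through liver regrowth. The list was chosen by name, for the roles of its members, and each gene was read by the probe set (the group of short probes summarised together) with the highest mean over all arrays among those annotated to that symbol alone. All 41 were measured and tested, out of 18193 genes measured and 13642 tested. The samples were livers of mice at 11 times after surgery that takes out 70% of the organ (partial hepatectomy), after which the remnant grows back. The start is labelled 0 days (0 d), the first day was sampled at 0.25, 0.5, 0.75 and 1 d, and later livers were taken at 1.5 and 2 d and at 3, 4, 7 and 14 d. Each time had 3 livers called biological replicates, with 1 Affymetrix mouse array per liver. The arrays of 0.25, 0.5, 0.75 and 1.5 d form a separate run of sample numbers from those of the other times. Whether the runs were processed apart is not known here, and a difference between them cannot be told apart from time. Comparisons of those times with 0 d cross the runs, as do the steps from 0.75 d to 1 d, 1 d to 1.5 d and 1.5 d to 2 d. The labels name the operation and the tissue, but no strain, sex, age or sham-operated group, so the effects of the operation and of tissue loss cannot be told apart. One label field speaks of cells from fat where the tissue and source fields give liver. Albumin (Alb), the main secreted protein of hepatocytes, lay between 14.60 and 14.80 on all 33 arrays, and the fat cell hormone gene Adipoq between 2.76 and 7.07. All values are on a log2 scale, on which a difference of 1 is a 2-fold change.

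As background, the kinetochore is the protein plate built on each centromere, and its NDC80 complex is the part that grips microtubules. The spindle checkpoint senses kinetochores without microtubules and holds back the anaphase-promoting complex, the ubiquitin ligase that starts chromosome separation, until every chromosome is attached. Condensin and topoisomerase II shape the chromosomes for this, and Aurora kinases and kinesin motors set up and correct the attachments. In the adult liver most hepatocytes are out of the cell cycle, and after tissue loss they enter it nearly in step, which is why such genes serve as a reading of division in regrowing liver. Many of them are known to be switched on late in the cycle through a promoter element called the cell cycle genes homology region (CHR), often placed just downstream of CCAAT boxes, and held off in resting cells by a repressor complex that binds the same element.

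Promoter windows are shown for the 6 members with a CHR core within the 100 bases before the start and a CCAAT box 20 to 40 bases before it, to show the arrangement that the counts after them describe. The windows, from the RefSeq promoter table of build GRCm38.p6, hold the 100 bases before the annotated start, printed 5′ to 3′ on the strand of the gene. Capitals mark a CHR core (TTTGAA, or TTCAAA where it lies on the other strand) and that CCAAT box (CCAAT, or ATTGG where it lies on the other strand). The windows are Bub3 at chr7:131560270-131560369 on the plus strand, Cdc20 at chr4:118437344-118437443 on the minus strand, Kif11 at chr19:37376282-37376381 on the plus strand, Kif22 at chr7:127042421-127042520 on the minus strand, Top2a at chr11:99024190-99024289 on the minus strand and Ube2c at chr2:164769829-164769928 on the plus strand.
Bub3: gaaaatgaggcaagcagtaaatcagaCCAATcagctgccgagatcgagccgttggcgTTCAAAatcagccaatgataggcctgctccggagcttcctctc
Cdc20: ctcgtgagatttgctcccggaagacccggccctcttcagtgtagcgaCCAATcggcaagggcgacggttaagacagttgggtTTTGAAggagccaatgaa
Kif11: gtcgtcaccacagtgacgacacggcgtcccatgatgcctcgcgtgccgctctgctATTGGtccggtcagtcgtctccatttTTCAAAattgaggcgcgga
Kif22: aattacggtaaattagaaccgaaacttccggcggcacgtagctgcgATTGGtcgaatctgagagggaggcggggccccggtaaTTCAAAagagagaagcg
Top2a: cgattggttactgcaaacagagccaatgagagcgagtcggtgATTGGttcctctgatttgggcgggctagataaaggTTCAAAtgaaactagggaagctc
Ube2c: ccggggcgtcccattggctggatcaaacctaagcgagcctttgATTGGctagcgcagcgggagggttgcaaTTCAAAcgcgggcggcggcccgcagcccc

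In these 6 windows the first letter of the CHR core lay 26 to 37 bases after that of the CCAAT box. The table held 37 promoter entries for 34 of the 41 members, each with 250 bases before and 50 after the start. A CHR core (TTTGAA on either strand, or the palindrome TTCGAA) was present in 25 of the 37 entries, 67.6%, and in 19.2% of all 32851 promoter entries. A CCAAT box was present in 75.7% of the member entries and 37.4% of all, and 2 or more of them in 54.1% and 11.7%. A CHR core 20 to 40 bases downstream of a CCAAT box was present in 14 member entries, 37.8%, and in 1.0% of all. The E2F sequence (TTCCCGCC, on either strand), known from genes of DNA replication, was present in 2.7% of the member entries and 2.2% of all. Among the 34 members with an entry, the median difference between 3 d and 0 d was 2.33 for the 24 genes with a CHR core in the window and 2.42 for the 10 without. These counts describe letters in the windows and show no binding. The medians rest on the probe set chosen for each gene. For Cdc20 and Kif2c, both with a CHR core, it differed by 0.44 and 0.78, while other probe sets differed by up to 3.64 and 3.39. The difference between the medians was not tested.

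One array stood apart in these genes. The mean of the 41 members was 6.30 on 2 d replicate 2 and 8.05 and 8.45 on the other 2 d arrays, while the 1.5 d arrays lay between 6.32 and 6.43 and the 3 d arrays between 7.43 and 7.73. Replicate 2 was the lowest of the 2 d arrays for 41 of 41 members and for 38.4% of all genes tested. The mitotic cyclin list (Ccna2, Ccnb2, Cdk1 and regulators) was low on it too, at a mean of 6.15 against 7.81 and 8.58, whereas the mean of the MCM helicase genes, which unwind DNA for replication, was 9.48 against 10.32 and 9.70 and above the 1.5 d range of 8.54 to 9.38. RNA quality probes lay within the range of the other arrays. Its Gapdh signal difference from the 3′ to the 5′ end was -0.09 in a range over all arrays of -0.32 to -0.04 and that of beta-actin was 0.88 in a range of 0.46 to 0.94. The spread of the members at 2 d had a median SD of 1.11, against 0.135 to 0.268 at the other times. The members' differences and counts at 2 d are therefore given with and without this array, a choice made after the data were seen. Because the array was singled out for its low values in these genes, leaving it out had to raise their 2 d means and narrow their spread. Values without it are a description and support no result. A smaller departure was at 0 d, where replicate 3 had a member mean of 5.68 against 5.26 and 5.35 and was the highest of the 3 for 29 of 41 members.

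**Figure D1:**
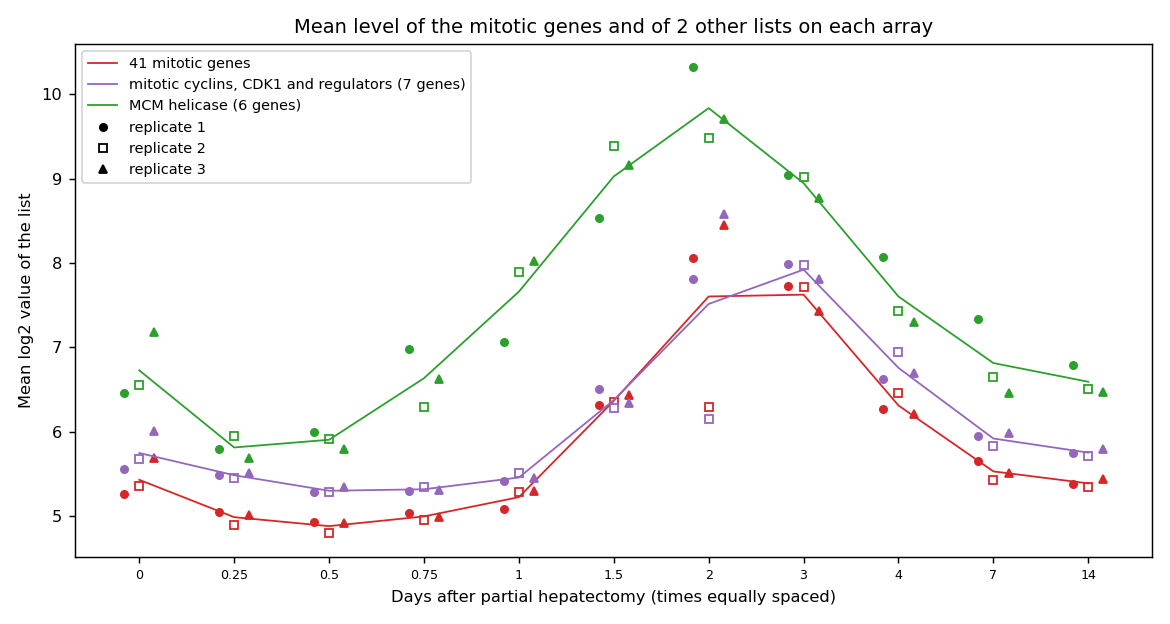
Mean log2 value of the 41 mitotic genes, of 7 genes of the mitotic cyclin list and of 6 MCM helicase genes on each of the 33 arrays, by days after partial hepatectomy at equal spacing. Points are arrays, with a symbol for each replicate number, and lines join the means of the 3 arrays; levels are not compared between lists. On 2 d replicate 2 the mitotic genes stood at 6.30 and the cyclin list at 6.15, near their 1.5 d levels, while the MCM list stood at 9.48.

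Expression of the mitotic genes was near or below its starting level for the first day, rose from 1.5 d, was highest at 2 d and 3 d, had fallen by 4 d and was back within the starting range at 7 d and 14 d. By the moderated F-test of limma, 41 of 41 members varied among the 11 times, as did 69.4% of all genes tested. At 3 d 38 members were higher than at 0 d, with a median difference of 2.22, against 10.2% of all genes tested called higher (21.2% in either direction) and a median of -0.03 over all of them. At 2 d 39 members were higher, with a median difference of 2.29, against 1494 of the 13642 genes tested called higher (22.5% in either direction). Without 2 d replicate 2 the 2 d count was 41, with a median of 2.93, against 10.1% of all genes. At least 4-fold rises were found for 23 members at 3 d and 25 at 2 d, or 32 at 2 d without replicate 2. No share of all genes is set beside these 4-fold counts. Calls are from limma over all 33 arrays at a Benjamini-Hochberg adjusted p under 0.05 within each comparison, and all 10 comparisons with 0 d share the same 3 control arrays. With each array left out in turn, 37 of the 38 calls at 3 d and 38 of the 39 at 2 d held. The exceptions were Bub3 at 3 d, lost when 0 d replicate 1, 0 d replicate 2 or any 3 d array was left out, and Tpx2 at 2 d, lost without 2 d replicate 3. The 2 d calls were less stable when the spread was taken from the 0 d and 2 d arrays alone, where 25 of the 39 held. That fit lost Bub1b, Bub3, Cdca3, Cenpa, Cenpe, Cenpf, Hmmr, Kif22, Kif2c, Ndc80, Nuf2, Nusap1, Spc24 and Tpx2. The like fit for 3 d gave 39 members higher. In whole liver, more dividing cells and more RNA per dividing cell cannot be told apart. Bub1, Cenph, Ndc80 and Kif20b passed the filter on low values only through the 2 d and 3 d arrays, so their rise was partly fixed by the filter; the other 37 members passed without those arrays.

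**Figure D2:**
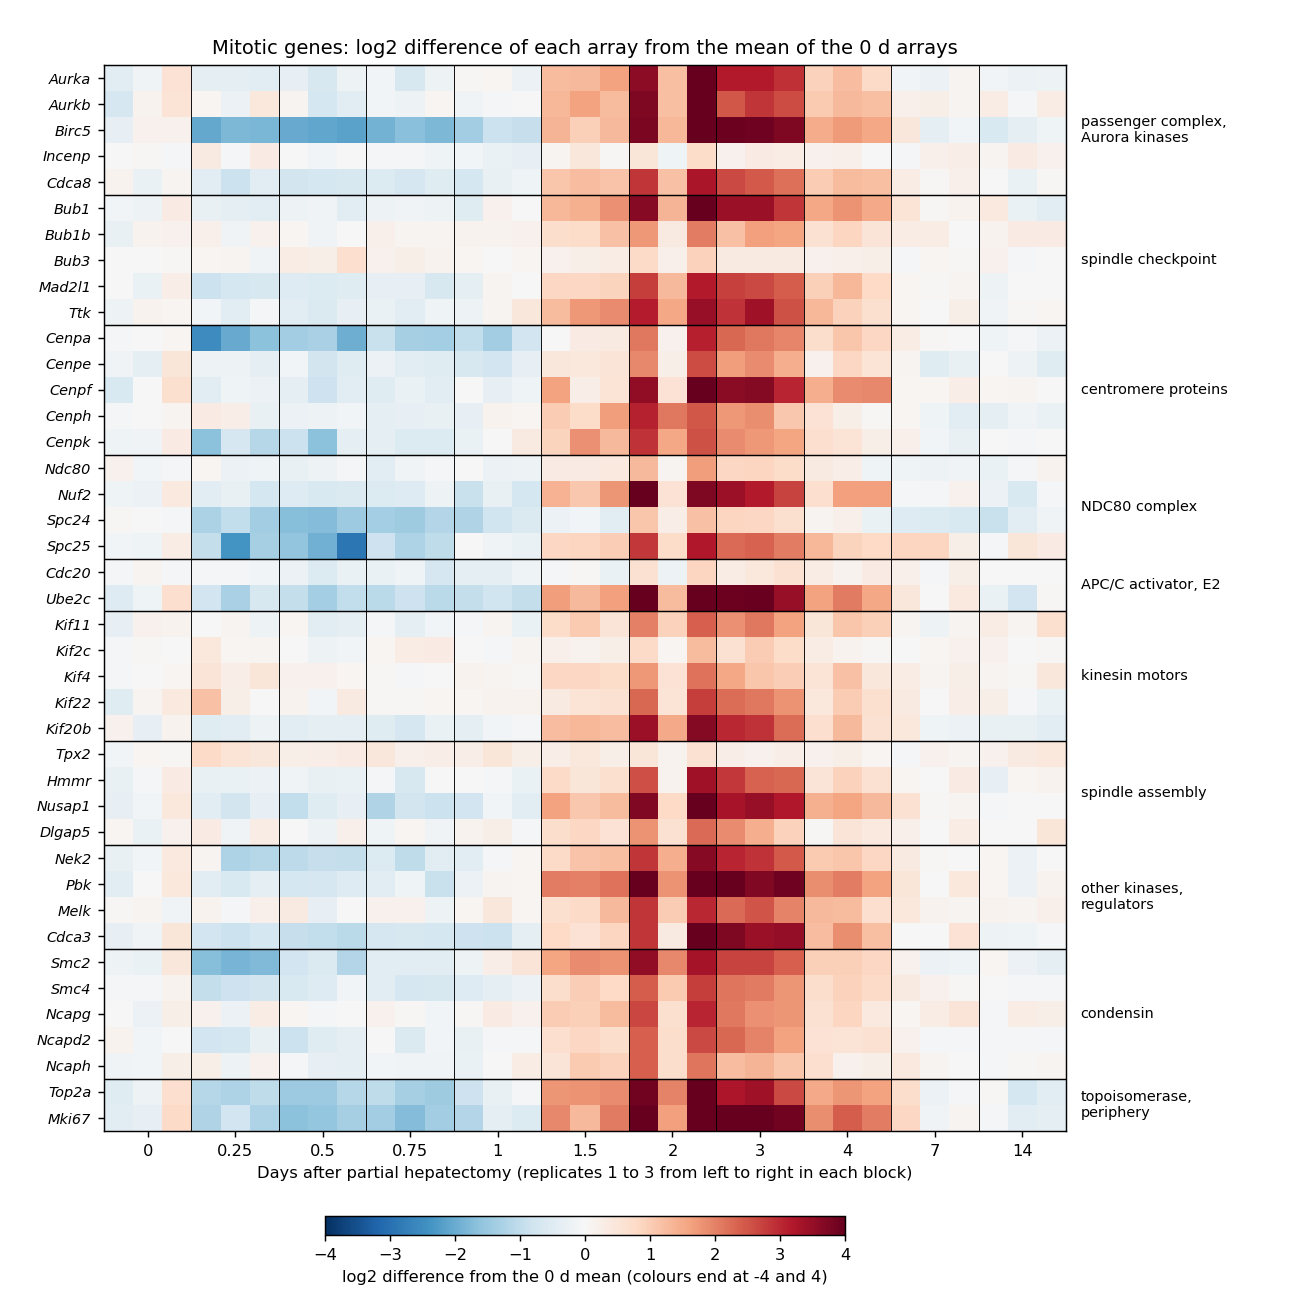
Difference of each array from the mean of the 0 d arrays for the 41 genes, on the log2 scale, with rows grouped by role and arrays ordered by time and replicate. Red is above and blue below the 0 d mean, and colours end at -4 and 4. The red block at 2 d and 3 d is broken by the pale column of 2 d replicate 2, and blue rows at 0.25 d to 0.75 d mark Birc5, Cenpa, Spc24, Spc25, Smc2, Top2a and Mki67.

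The chromosomal passenger complex corrects faulty attachments and later guides cytokinesis. By the used probe sets 3 of its 4 subunits rose, as did the related spindle pole kinase gene Aurka. Birc5, which encodes the complex's survivin subunit, stood at 5.13, 5.63 and 5.64 at 0 d. It stood at 9.22, 6.79 and 10.07 at 2 d and at 9.39, 9.36 and 9.19 at 3 d. Every 2 d and 3 d array was above every 0 d array. The difference at 3 d was 3.85 ± 0.42 (SE), or 14.4-fold, with an adjusted p of 8.06e-07. Aurkb, the kinase of the complex, was at 3.32, 4.13 and 4.53 at 0 d, at 7.74, 5.19 and 8.21 at 2 d and at 6.49, 6.85 and 6.60 at 3 d. It rose by 3.05 ± 0.43 at 2 d, or by 3.98 ± 0.25 without replicate 2. Aurka rose by 3.02 ± 0.41 at 2 d (3.93 ± 0.22 without replicate 2) and 3.09 ± 0.41 at 3 d. Cdca8, the borealin subunit, rose by 2.43 ± 0.29 at 2 d (3.06 ± 0.17 without replicate 2) and by 2.43 ± 0.29 at 3 d. The scaffold subunit Incenp, by its used probe set, was at 6.39, 6.39 and 6.30 at 0 d, at 6.85, 6.20 and 7.11 at 2 d and at 6.53, 6.69 and 6.66 at 3 d. Its 2 d arrays overlapped those of 0 d, and the difference of 0.36 ± 0.15 did not pass (adjusted p = 0.09). Leaving out 2 d replicate 2 gave 0.62 ± 0.13 (adjusted p = 0.000899). This is a description and no call, since that array was left out for its low values.

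All 5 spindle checkpoint genes were higher at 2 d and at 3 d, and 4 of them at 1.5 d. Bub1, the kinase that marks kinetochores for checkpoint proteins, was at 3.15, 3.06 and 3.59 at 0 d, at 6.91, 4.63 and 7.53 at 2 d and at 6.71, 6.71 and 6.13 at 3 d. Its difference at 3 d was 3.25 ± 0.40, given as a description, since its 0 d arrays lay below the filter level of 5 and it passed the filter only through the 2 d and 3 d arrays. Among the members of the group that passed without those arrays Ttk, the kinase Mps1 that starts the checkpoint, rose most at 3 d, by 2.94 ± 0.30, and Mad2l1, the inhibitor that holds Cdc20, by 2.60 ± 0.26. Bub1b, the BubR1 subunit of the inhibitory complex, rose by 1.45 ± 0.25. Bub3, the adaptor shared by Bub1 and BubR1, moved least and at other times. It was at 9.37, 9.37 and 9.43 at 0 d, at 9.70, 9.63 and 10.06 at 0.5 d, at 10.14, 9.60 and 10.31 at 2 d and at 9.76, 9.76 and 9.75 at 3 d. All arrays at these 3 times were above all 0 d arrays, with differences of 0.41 ± 0.12 at 0.5 d, 0.63 ± 0.12 at 2 d and 0.36 ± 0.12 at 3 d. The call at 0.5 d was lost without 0.5 d replicate 3, its highest array, and that at 3 d in the fits named above. The 2 d difference was 0.84 ± 0.10 without replicate 2.

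Among the centromere proteins, all 5 were higher at 2 d and 3 d. Cenpf, a large protein of the outer kinetochore that is used as a marker of late cycle cells, was at 4.25, 4.85 and 5.51 at 0 d, at 8.42, 5.46 and 9.35 at 2 d and at 8.49, 8.53 and 7.91 at 3 d. The lowest 2 d array lay inside the 0 d range and all 3 d arrays above it. The rise at 3 d was 3.44 ± 0.53, or 10.8-fold, and at 2 d 2.87 ± 0.53, or 4.02 ± 0.31 without replicate 2. Cenpa, the histone H3 variant that defines the centromere, rose by 2.12 ± 0.39 at 3 d, and the kinesin gene Cenpe, which carries chromosomes to the spindle equator, by 1.68 ± 0.34. The inner kinetochore subunits Cenph and Cenpk had higher means at 2 d than at 3 d. Cenph passed the filter on low values only through the 2 d and 3 d arrays, so its values are given as a description. Cenph was at 3.44, 3.51 and 3.65 at 0 d, at 6.62, 5.63 and 6.03 at 2 d and at 5.28, 5.40 and 4.63 at 3 d, so that its 2 d arrays, replicate 2 included, all lay above its 3 d arrays. Cenpk rose by 2.33 ± 0.30 at 2 d (2.72 ± 0.29 without replicate 2) and 1.73 ± 0.30 at 3 d, and both genes had risen at 1.5 d, by 1.14 ± 0.23 and 1.35 ± 0.30.

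The 4 genes of the NDC80 complex all rose, to different extents. Nuf2, a subunit of the microtubule-binding head, was at 4.15, 4.09 and 4.71 at 0 d, at 8.34, 4.90 and 8.03 at 2 d and at 7.74, 7.48 and 7.03 at 3 d. It rose by 3.10 ± 0.49 at 3 d and, at 2 d, by 2.77 ± 0.49 with and 3.87 ± 0.26 without replicate 2. Its partner Ndc80 rose by 1.03 ± 0.22 at 2 d (1.49 ± 0.15 without replicate 2) and 0.81 ± 0.22 at 3 d from a 0 d mean of 4.22, below the filter level of 5. Ndc80 passed the filter only through the 2 d and 3 d arrays, so its rise is a description. Spc24 and Spc25 form the end that docks on the inner kinetochore. Spc25 rose by 2.26 ± 0.41 at 2 d (3.03 ± 0.32 without replicate 2) and 2.22 ± 0.41 at 3 d. Spc24 rose by 0.85 ± 0.20 at 2 d (1.14 ± 0.18 without replicate 2) and 0.79 ± 0.20 at 3 d. Both were below their starting level on the first day.

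Ube2c, the ubiquitin-conjugating enzyme of the anaphase-promoting complex, was at 5.07, 5.40 and 6.25 at 0 d, at 9.65, 6.85 and 10.48 at 2 d and at 9.49, 9.52 and 9.07 at 3 d. It rose by 3.79 ± 0.49 at 3 d, or 13.8-fold (adjusted p = 5.96e-06), and at 2 d by 3.42 ± 0.49 with and 4.49 ± 0.28 without replicate 2. Cdc20, the activator of the same ligase and the target of the checkpoint, did not pass by its used probe set. That probe set was at 6.80, 6.95 and 6.76 at 0 d, at 7.46, 6.62 and 7.68 at 2 d and at 7.15, 7.25 and 7.44 at 3 d. All 3 d arrays were above all 0 d arrays, but the difference of 0.44 ± 0.17 had an adjusted p of 0.0699. The 2 d difference was 0.42 ± 0.17 with all arrays (adjusted p = 0.0831) and 0.73 ± 0.13 without replicate 2 (adjusted p = 0.000253). The value without replicate 2 is a description and no call, since that array was left out for its low values. Other probe sets of Cdc20 rose at 3 d, by up to 3.64.

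The 5 kinesin genes were all higher at 2 d and 3 d. Kif20b, a motor with a part in completing cytokinesis, was at 3.22, 2.71 and 3.18 at 0 d, at 6.44, 4.53 and 6.69 at 2 d and at 6.04, 5.94 and 5.27 at 3 d. Its differences were 2.86 ± 0.33 at 2 d (3.53 ± 0.21 without replicate 2) and 2.72 ± 0.33 at 3 d, a description for the same reason as with Bub1. Kif22, which pushes chromosome arms outward, rose by 2.04 ± 0.35 at 3 d, Kif11, the motor that slides spindle poles apart, by 1.85 ± 0.25 and Kif4, which works with condensin on chromosomes, by 1.21 ± 0.23. Kif2c, which removes tubulin from microtubule ends, rose by 0.78 ± 0.17 at 3 d by its used probe set.

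Of the spindle assembly factors, 4 of 4 were higher at 2 d and 3 at 3 d. Nusap1, which bundles microtubules near chromosomes, was at 4.96, 5.18 and 5.71 at 0 d, at 8.98, 6.08 and 9.92 at 2 d and at 8.60, 8.76 and 8.47 at 3 d, a rise of 3.32 ± 0.50 at 3 d. Hmmr, a spindle pole and hyaluronan-binding protein, rose by 2.51 ± 0.42, and Dlgap5, which stabilises microtubules at kinetochores, by 1.42 ± 0.27. Tpx2, the activator of Aurora A, was the only member whose mean was highest outside 2 d and 3 d. By its used probe set it was at 5.38, 5.57 and 5.55 at 0 d, at 6.27, 6.06 and 5.96 at 0.25 d, at 5.99, 5.65 and 6.11 at 2 d and at 5.76, 5.68 and 5.78 at 3 d. The arrays at these later times were all above those of 0 d. The difference was 0.59 ± 0.11 at 0.25 d (adjusted p = 8.48e-05), 0.41 ± 0.11 at 2 d (0.55 ± 0.11 without replicate 2) and 0.24 ± 0.11 at 3 d, where it did not pass (adjusted p = 0.122). With the probe sets of the gene averaged, the call at 0.25 d was lost and the differences at 0.5 d and 0.75 d turned negative, to -0.011 and -0.083.

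All 4 of the other mitotic kinases and regulators rose at least 4-fold at both peak times. Pbk, a kinase of mitotic cells, was at 5.16, 5.62 and 6.03 at 0 d, at 7.64, 7.61 and 7.77 at 1.5 d, at 10.21, 7.41 and 10.57 at 2 d and at 9.74, 9.32 and 9.48 at 3 d. Its arrays at 1.5 d to 3 d were all above those of 0 d. Its 1.5 d rise, 2.07 ± 0.43, was the largest of the 41 members at that time, and its 3 d rise was 3.91 ± 0.43, or 15.0-fold. Cdca3, a trigger of mitotic entry, was at 5.57, 5.75 and 6.37 at 0 d, at 8.77, 6.27 and 10.34 at 2 d and at 9.63, 9.36 and 9.43 at 3 d. It rose by 3.57 ± 0.50 at 3 d, and at 2 d, where replicate 2 lay within the 0 d range, by 2.56 ± 0.50 with and 3.66 ± 0.29 without that array. Nek2, a kinase that separates the centrosomes, rose by 2.81 ± 0.35 at 3 d and Melk, a kinase made in dividing cells, by 2.25 ± 0.31.

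All 5 condensin genes rose at 2 d and 3 d. Smc2, one of the ATPase arms shared by both condensins, was at 5.62, 5.54 and 6.27 at 0 d, at 7.40, 7.70 and 7.60 at 1.5 d, at 9.34, 7.74 and 9.14 at 2 d and at 8.51, 8.51 and 8.19 at 3 d. Its arrays at 1.5 d, 2 d and 3 d were all above those of 0 d, with differences of 1.75 ± 0.27, 2.93 ± 0.27 (3.43 ± 0.20 without 2 d replicate 2) and 2.59 ± 0.27. The other arm, Smc4, rose by 2.07 ± 0.24 at 2 d (2.58 ± 0.14 without replicate 2) and 1.99 ± 0.24 at 3 d. The condensin I subunits Ncapg, Ncapd2 and Ncaph rose by 2.12 ± 0.33, 1.92 ± 0.28 and 1.75 ± 0.26 at 2 d, by 2.86 ± 0.17, 2.52 ± 0.17 and 2.27 ± 0.18 at 2 d without replicate 2, and by 1.90 ± 0.33, 1.96 ± 0.28 and 1.23 ± 0.26 at 3 d. By mean level 4 of the 5 condensin genes were highest at 2 d, all but Ncapd2.

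The proliferation marker Mki67, whose protein coats mitotic chromosomes, had the largest rise of the 41 members at 3 d. It was at 5.13, 5.23 and 6.34 at 0 d, at 10.03, 7.21 and 10.57 at 2 d and at 9.71, 9.67 and 9.43 at 3 d. The rise was 4.04 ± 0.49 at 3 d, or 16.4-fold (adjusted p = 2.68e-06), and at 2 d 3.71 ± 0.49 with and 4.74 ± 0.31 without replicate 2. Top2a, topoisomerase II alpha, which untangles sister DNA, rose by 3.32 ± 0.37 at 2 d (4.00 ± 0.29 without replicate 2) and 3.09 ± 0.37 at 3 d.

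**Figure D3:**
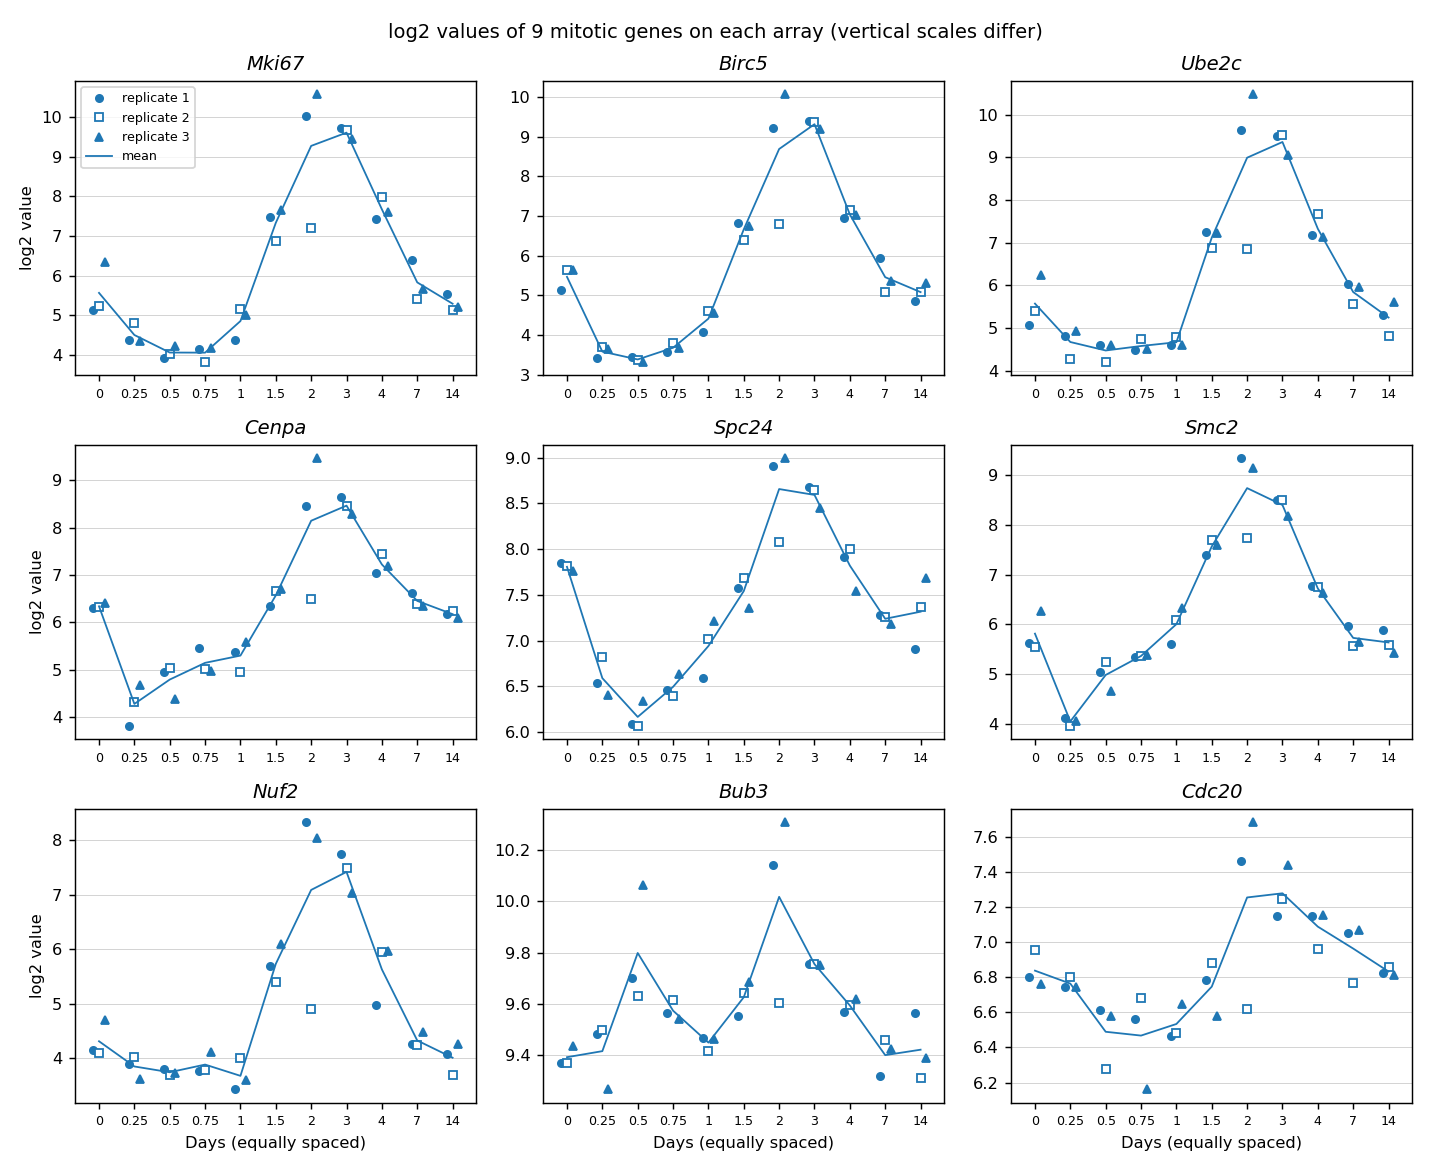
log2 values of 9 of the genes on each of the 33 arrays, with times at equal spacing, a symbol for each replicate number and a line through the means of the 3 arrays; vertical scales differ between panels. Mki67, Birc5, Ube2c and Nuf2 climb by 3.10 to 4.04 between 0 d and 3 d, Cenpa, Spc24 and Smc2 dip before they climb, and Bub3 and the used probe set of Cdc20 differ from 0 d by 0.36 and 0.44 at 3 d.

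The first day asks how resting liver responds before division. At 0.25 d 9 members were lower than at 0 d and 1, Tpx2, was higher, against 28.8% of all genes called lower and 17.2% higher (45.9% in either direction), so the members' share was no larger than the background. Of the 10 calls, 8 held with each array left out in turn. The losses were Mad2l1 (without 0 d replicate 1, 0 d replicate 3 or 0.25 d replicate 1) and Top2a (without 0 d replicate 3). Leaving out 2 d replicate 2, whose spread enters every comparison of the fit, gave 16 lower and 2 higher, against 29.3% and 17.4% of all genes. In that fit the members' share of lower calls was above the background. Here and below, counts from alternative fits that stand without a share of all genes are not set against the background. The median difference over the members was -0.37. Cenpa was at 6.30, 6.32 and 6.41 at 0 d and at 3.83, 4.34 and 4.69 at 0.25 d, with no overlap, and fell by 2.06 ± 0.39 (adjusted p = 0.000138). Birc5 was at 3.41, 3.68 and 3.64 at 0.25 d, also below all 0 d arrays, and differed by -1.89 ± 0.42. Smc2 was at 4.11, 3.96 and 4.06 and differed by -1.77 ± 0.27, the smallest adjusted p of the members at this time (9e-06). The kinetochore genes Spc25, Spc24 and Cenpk differed by -1.55 ± 0.41, -1.22 ± 0.20 and -1.15 ± 0.30, Top2a by -1.13 ± 0.37, Smc4 by -0.83 ± 0.24 and Mad2l1 by -0.73 ± 0.26. Beside this, 5 of 5 neutrophil and monocyte markers tested (of 8 listed) were higher at 0.25 d, with a list mean of 6.07 to 6.31 against 5.02 to 5.23 at 0 d. Of 3 erythroid markers tested (of 7 listed) 2 were lower, Alas2 and Klf1, with a list mean of 6.14 to 6.43 against 6.50 to 6.57. Their part in the change of the mitotic genes was not tested.

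From 0.25 d to 0.5 d Smc2 rose by 0.93 ± 0.27, Bub3 rose by 0.38 ± 0.12 and Tpx2 fell by 0.31 ± 0.11, against 16.0% of all genes called higher and 5.25% lower in this step (21.2% in either direction). The call of 2 higher became 1 without 0.25 d replicate 3, 0.5 d replicate 2 or 0.5 d replicate 3 and 3 without 2 d replicate 2, and that of Tpx2 was lost when 0.25 d replicate 1, 0.25 d replicate 2, 0.5 d replicate 1 or 0.5 d replicate 2 was left out. At 0.5 d 9 members were lower than at 0 d and 2 were higher (Bub3 and Tpx2), against 19.4% and 15.8% of all genes (35.2% in either direction). The members' share was near the background for lower calls and below it for higher calls. The count lower was 18 without 2 d replicate 2 and 4 without 0 d replicate 3, the highest 0 d array. Those that held with each array left out in turn were Birc5 at -2.08 ± 0.42, Cenpa at -1.54 ± 0.39, Spc24 at -1.64 ± 0.20 and Spc25 at -2.13 ± 0.41. Spc24 was at 7.84, 7.81 and 7.76 at 0 d and at 6.09, 6.07 and 6.34 at 0.5 d, and Spc25 at 6.75, 6.67 and 7.13 and at 5.29, 4.92 and 3.96. Neither gene's arrays overlapped between these times. Mki67 (-1.50 ± 0.49), Top2a (-1.34 ± 0.37), Nek2 (-0.99 ± 0.35), Cenpk (-0.95 ± 0.30) and Smc2 (-0.83 ± 0.27) were each lost in at least 1 of these fits, in each case without 0 d replicate 3. Bub3 was lost without 0.5 d replicate 3, and Tpx2 without 0 d replicate 1, 0 d replicate 3 or any 0.5 d array. A fit of the 0 d and 0.5 d arrays alone lost both as well.

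At 0.75 d 5 members were lower (Birc5, Cenpa, Spc24, Top2a and Mki67) and 1, Tpx2, was higher, against 12.7% and 9.84% of all genes. The members' share was no larger than the background. The count lower was 12 without 2 d replicate 2, 2 without 0 d replicate 3 or 0.75 d replicate 3, and 3 without 0.75 d replicate 2, and Tpx2 was lost without any 1 of the 0 d arrays, among others. The count lower was 9 with array weights and 12 with only the arrays compared, and Tpx2, whose difference turned negative with its probe sets averaged, was also lost with no filter, a common median, a replicate block, only the arrays compared or joint adjustment. At 1 d only Spc24 was lower, by -0.86 ± 0.20, and only Tpx2 higher, by 0.33 ± 0.11, against 9.55% and 8.16% of all genes. The count lower was 5 without 2 d replicate 2 and 3 without 2 d replicate 3, and the call of Tpx2 was lost when 0 d replicate 1, 0 d replicate 2, 1 d replicate 1 or 1 d replicate 2 was left out. With array weights or only the arrays compared the count lower was 3. No member passed in the steps from 0.5 d to 0.75 d and from 0.75 d to 1 d by limma, where 2 and 4 members were higher at an unadjusted p under 0.05. Of all genes, 1.23% were called higher and 1.06% lower in the first of these steps (2.29% in either direction), and 0.594% and 0.579% in the second (1.17% in either direction). Leaving out 2 d replicate 2 gave 1 member higher from 0.5 d to 0.75 d. The lowest mean fell at 0.5 d for 16 members, at 0.25 d for 9, at 0.75 d for 8, at 0 d for 4, at 1 d for 3 and at 14 d for 1.

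The rise began between 1 d and 1.5 d, a step that crosses the separate runs of sample numbers. At 1.5 d 25 members were higher than at 0 d, with a median difference of 0.87, against 8.33% of all genes. The count was 32 without 2 d replicate 2, and 9, 13, 15 and 13 without 0 d replicate 1, 0 d replicate 2, 1.5 d replicate 2 and 1.5 d replicate 3. With each array left out in turn 9 calls held, those of Bub1, Cdca8, Cenph, Cenpk, Kif20b, Pbk, Smc2, Top2a and Ttk. Of these Bub1, Cenph and Kif20b passed the filter on low values only through the 2 d and 3 d arrays. From 1 d to 1.5 d 14 members rose, with a median difference of 1.05 over the 41, against 1.14% of all genes called higher (2.10% in either direction). The count was 34 and 23 without 2 d replicates 2 and 3, and 8 and 9 without 1 d replicate 1 and 1.5 d replicate 2. It was 33 with array weights and 32 with only the arrays compared. Mki67 rose most in this step, by 2.48 ± 0.49, from 4.38, 5.17 and 5.02 at 1 d to 7.48, 6.87 and 7.64 at 1.5 d, with no overlap. Ube2c rose by 2.45 ± 0.49, Birc5 by 2.25 ± 0.42 and Top2a by 2.21 ± 0.37. From 1 d on, 24 members were first called higher than at 0 d at 1.5 d and 14 at 2 d. The later 14 were Bub3, Cenpa, Cenpe, Cenpf, Ndc80, Spc24, Spc25, Kif2c, Kif22, Hmmr, Nusap1, Dlgap5, Cdca3 and Ncapd2. By their used probe sets Tpx2 was called at 1 d, and Incenp and Cdc20 at no time. Spc24 and Cenpa were among those low on the first day and at 1.5 d differed from 0 d by -0.27 ± 0.20 and 0.23 ± 0.39. A later first call does not show a later rise, since that difference was not tested.

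From 1.5 d to 2 d 22 members rose, with a median difference of 1.36, against 1.49% of all genes called higher (1.60% in either direction). In a limma fit of the 1.5 d and 2 d arrays alone none of the 22 calls held, while array weights gave 39. The count also rested on single arrays. The count was 39 without 2 d replicate 2, with a median of 1.89, against 3.15% of all genes. It fell to 3 and 2 without 2 d replicates 1 and 3, and to 3, 8 and 8 without 1.5 d replicates 1, 2 and 3. Mad2l1 and Cenph held with each array left out, at 1.55 ± 0.26 and 1.42 ± 0.23, but not in the limma fit of the 1.5 d and 2 d arrays alone (adjusted p of 0.325 for Cenph and 0.34 for Mad2l1). Mad2l1 was at 7.64, 7.63 and 7.71 at 1.5 d and at 9.57, 8.09 and 9.96 at 2 d, with no overlap. The difference of Cenph is a description, since Cenph passed the filter only through the 2 d and 3 d arrays. Relative to the mean of 1 d and 2 d, the 1.5 d level passed for 0 members by limma and for 0 at an unadjusted p under 0.05, against 0.0147% of all genes called lower and 0.00733% higher. Leaving out 2 d replicate 2, it was lower for 2, Mad2l1 and Hmmr, against 0.293% of all genes.

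Whether the genes peaked at 2 d or 3 d also turned on that array. Over all arrays the highest mean was at 3 d for 23 members and at 2 d for 17, and no member passed between 2 d and 3 d by limma, where 2 were lower at an unadjusted p under 0.05 and the median difference was 0.04. The share of all genes called was 0.205% higher and 0.213% lower (0.418% in either direction). With 1 array left out, 1 member was lower without 0.25 d replicate 1 or 3, 0.5 d replicate 3, 1.5 d replicate 2 or 3, 2 d replicate 3, 7 d replicate 1 or 14 d replicate 1, and 1 was higher without 2 d replicate 3. With array weights 6 were lower. Without 2 d replicate 2 the mean of the remaining 2 d arrays was above the 3 d mean for 41 of 41 members, the median difference was -0.60, and 10 members passed as lower at 3 d, against 1.00% of all genes. The choice of that array for its low values moves these differences in this direction, so they do not show that 2 d was the peak. The 10 were Aurkb (-1.33 ± 0.25), Cenph (-1.22 ± 0.24), Ncaph (-1.03 ± 0.18), Ncapg (-0.96 ± 0.17), Pbk (-0.88 ± 0.21), Smc2 (-0.84 ± 0.20), Kif4 (-0.73 ± 0.17), Ndc80 (-0.67 ± 0.15), Smc4 (-0.59 ± 0.15) and Bub3 (-0.47 ± 0.10). Cdca3 differed least between these times without the array, by -0.08 ± 0.29, and most with it, by 1.01 ± 0.50.

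**Figure D4:**
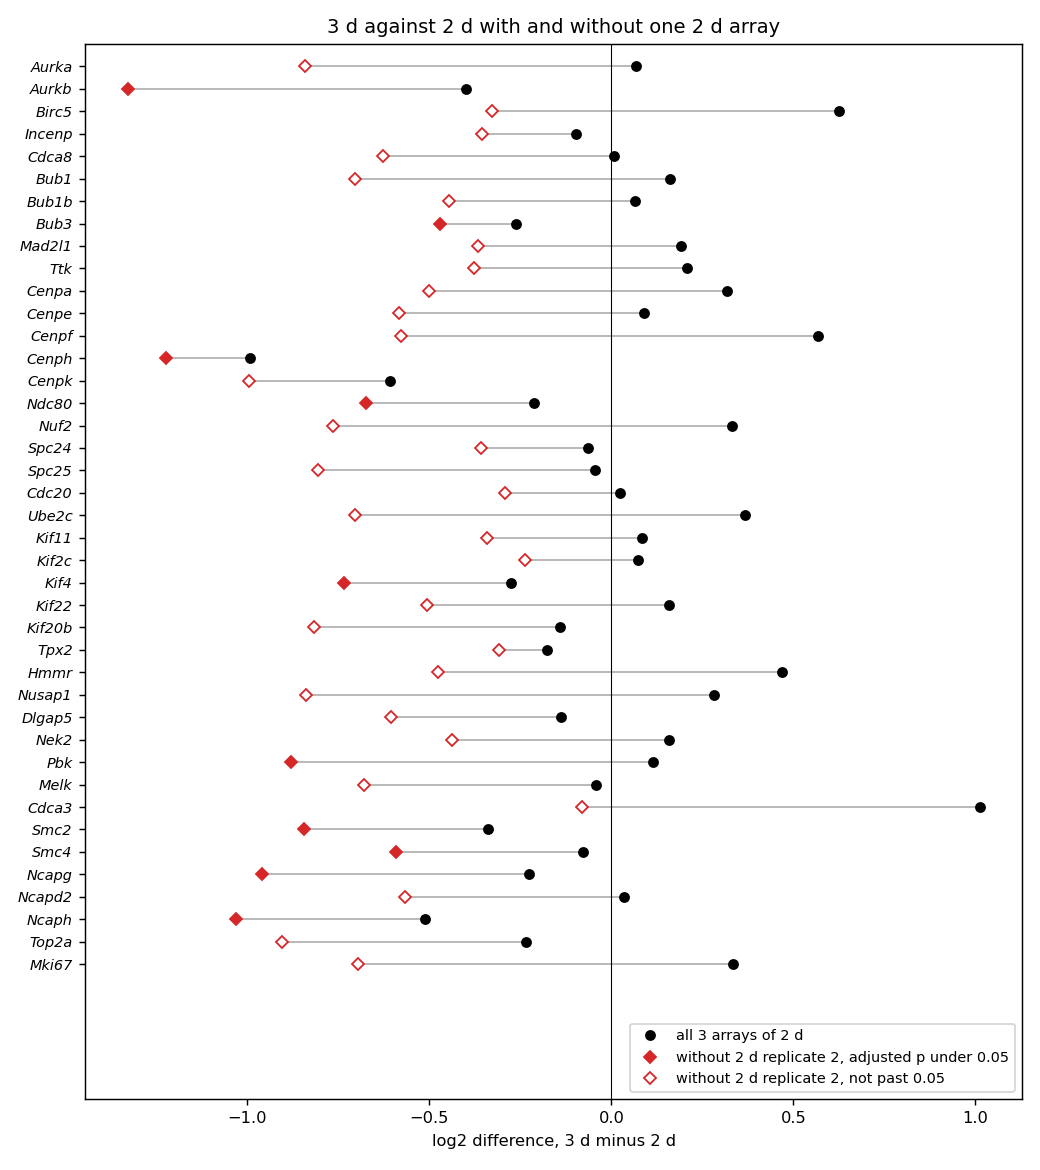
Difference between 3 d and 2 d for each of the 41 genes on the log2 scale, with all 3 arrays of 2 d (black circles) and without 2 d replicate 2 (red diamonds, filled where the adjusted p is under 0.05). Leaving the array out moves each gene to the left: the median goes from 0.04 to -0.60, and 10 diamonds are filled, for an array that was singled out because it was low.

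The genes declined between 3 d and 4 d. In this step 31 members fell and none rose, with a median difference of -1.29, against 3.23% of all genes called lower and 3.03% higher. The count was 37 without 2 d replicate 2, and 12, 14 and 17 without 3 d replicate 1, 3 d replicate 2 and 4 d replicate 3. Of the 31 calls 11 held with each array left out in turn. Among the 31, Bub1, Cenph and Kif20b passed the filter on low values only through the 2 d and 3 d arrays. Their fall from 3 d was thus partly fixed by the filter and is a description. Birc5 fell most, by 2.28 ± 0.42, to 6.94, 7.16 and 7.02 at 4 d, and Ttk had the smallest adjusted p (0.000311) with a fall of 1.97 ± 0.30. Ttk went from 6.77, 7.26 and 6.42 at 3 d to 5.20, 4.81 and 4.52 at 4 d, with no overlap. The 10 that did not pass were Incenp, Bub1b, Bub3, Cenpa, Cenpf, Ndc80, Spc25, Cdc20, Kif4 and Tpx2. Of these Cenpf differed most, by -1.68 ± 0.53 (adjusted p = 0.0559).

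At 4 d 7 members were still higher than at 0 d, with a median over the 41 of 0.86, against 1.88% of all genes. They were Mki67 (2.11 ± 0.49), Pbk (1.84 ± 0.43), Top2a (1.63 ± 0.37), Bub1 (1.62 ± 0.40), Birc5 (1.57 ± 0.42), Cdca8 (1.16 ± 0.29) and Mad2l1 (1.03 ± 0.26). Of these Bub1 passed the filter on low values only through the 2 d and 3 d arrays. Mki67 stood at 7.43, 7.99 and 7.60 at 4 d, above all 0 d arrays. None of the 7 calls held with each array left out in turn. The count was 28 and 16 without 2 d replicates 2 and 3, 2 without 4 d replicate 1, and 0 without 0 d replicate 1, 0 d replicate 2 or 4 d replicate 2. It was 20 with array weights, 17 with only the arrays compared and 18 with joint adjustment over the comparisons with 0 d. From 4 d to 7 d no member passed by limma, while 24 were lower at an unadjusted p under 0.05, with a median difference of -0.77, against 0.00% of all genes. The count lower in this step was 20 without 2 d replicate 2, against 0.550% of all genes, and 11 with array weights or with only the arrays compared. At 7 d and 14 d no member differed from 0 d by limma, against 0.125% and 0.0147% of all genes called higher and 0.0586% and 0.00% lower. At an unadjusted p under 0.05 1 member was lower at 7 d, and 1 was higher and 1 lower at 14 d. Joint adjustment called 1 higher at 14 d. The median differences were 0.14 at 7 d and -0.04 at 14 d. The step from 7 d to 14 d had no call either, with 1 member higher at an unadjusted p under 0.05 and 0.00% of all genes called. Mki67 was at 6.40, 5.41 and 5.67 at 7 d and at 5.52, 5.13 and 5.22 at 14 d, and overlapped its 0 d arrays at both times.

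Other genes of the same structures were taken from lists that hold no member. Of 71 listed, 60 were tested, and at 3 d 40 were higher and 1 was lower, with a median difference of 0.71. At 2 d 44 were higher and 1 lower, or 45 and 1 without replicate 2. The shares of all genes called at 2 d and 3 d are those given above beside the members. Whether these genes, or the cyclin genes below, passed the filter without the 2 d and 3 d arrays was not examined. Their rises at these times may thus be partly fixed by the filter. Among the other inner kinetochore genes 12 of 14 were higher at 3 d, such as Cenpi (2.42 ± 0.30) and Cenpp (2.21 ± 0.35), subunits of the network that links centromere and kinetochore. Among the other outer kinetochore and checkpoint genes 6 of 13 were higher, led by the checkpoint genes Zwilch (2.98 ± 0.26) and Kntc1 (2.32 ± 0.40) of the RZZ complex. Of the other spindle genes 13 of 19 were higher, led by Cep55 (3.55 ± 0.33), an abscission factor. Of the cohesin and separase genes 6 of 11 were higher, led by Esco2 (4.46 ± 0.41), which acetylates cohesin, and the cohesin protector gene Cdca5 (3.11 ± 0.37), and 1 was lower, the securin gene Pttg1 (-0.45 ± 0.10). All 3 condensin II genes were higher, Ncapg2 (2.84 ± 0.33) the most.

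Cyclin and replication genes were read beside the members. Cdk1, the kinase that drives mitosis, rose by 2.97 ± 0.38 at 3 d, and its partners Ccna2 and Ccnb2 by 3.46 ± 0.48 and 4.21 ± 0.62. At 1 d the MCM helicase genes had 4 of 6 members higher, with a median of 1.01, and at 1.5 d 6 of 6 were higher, with a median of 2.38, while the 41 mitotic genes had medians of -0.12 and 0.87 at these times. The difference between these lists was not tested. Among other cell types, 5 of 9 Kupffer cell markers were higher at 3 d, with a list mean of 8.74 to 9.26 against 7.65 to 8.17 at 0 d. At 2 d 1 of these markers was higher and 2 were lower, with a list mean of 7.70 to 8.08, and the same counts without replicate 2. The neutrophil and monocyte list had 2 of 5 higher at 3 d and 0 at 2 d, and the 5 T, NK and B cell markers tested had 0 called at either time. Of the erythroid markers 2 of 3 were lower at 2 d and 3 d. The part of these cells in the levels of the mitotic genes was not tested.

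The probe set that stood for a gene mattered for a few members. The 41 genes had 102 single-symbol probe sets, 11 genes with 1 and 30 with more. Of the 61 that were not used 39 were higher at 3 d and none was lower, against 5.73% of all 45037 probe sets called higher. For 14 members another probe set had a larger difference at 3 d. Cdc20 probe set 1416664_at went from 5.56, 6.01 and 6.70 at 0 d to 9.99, 9.62 and 9.58 at 3 d, a difference of 3.64 ± 0.52, and 1439377_x_at differed by 3.62 ± 0.50, against 0.44 ± 0.17 for the used one. Incenp probe set 1439436_x_at went from 5.80, 5.56 and 5.89 to 8.36, 8.29 and 8.03, a difference of 2.48 ± 0.28. Tpx2 probe set 1428104_at went from 3.50, 3.11 and 3.38 to 6.53, 6.63 and 6.47, a difference of 3.21 ± 0.44, and Kif2c probe set 1437611_x_at differed by 3.39 ± 0.46. Each of these lay with all 3 d arrays above all 0 d arrays, so Incenp, Cdc20 and Tpx2 each had a probe set that rose at 3 d although the used one did not pass. The other 7 unused probe sets of these 4 genes differed by -0.20 to 1.58 at 3 d, of which 4 passed, so the unused probe sets of a gene did not all move together. By any probe set 38 of the 41 genes rose at least 2-fold at 3 d, and by the used one 34. Which transcript each probe set reads was not analysed here, and probe sets whose names end in _x_at or _s_at may also bind related transcripts.

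**Figure D5:**
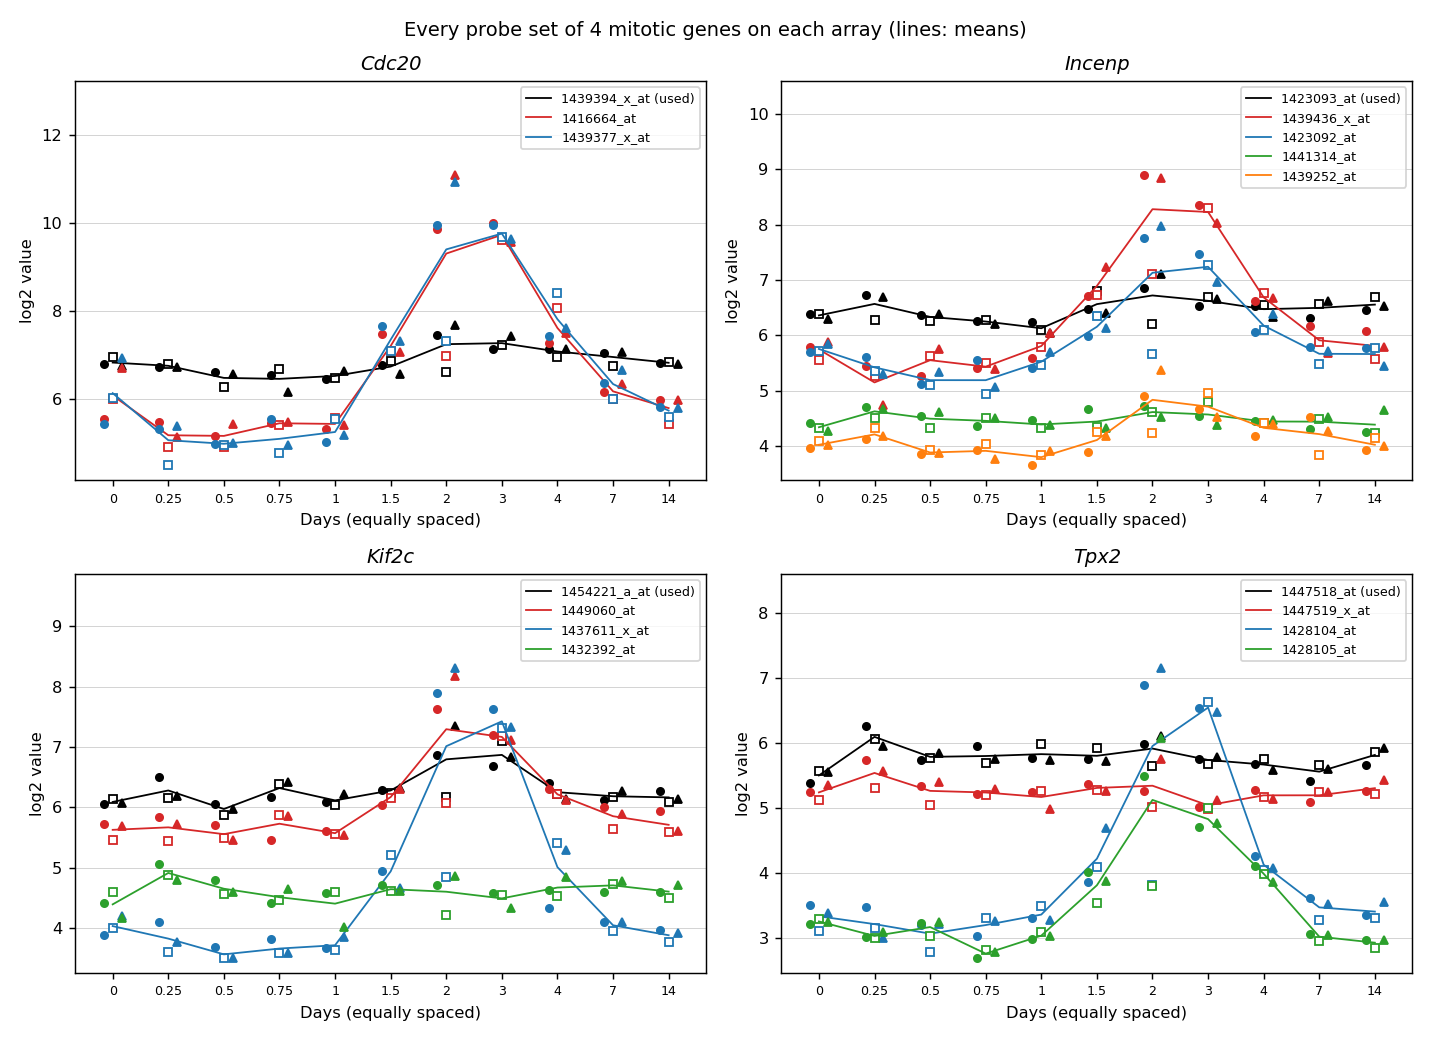
log2 values of every single-symbol probe set of Cdc20, Incenp, Kif2c and Tpx2 on each of the 33 arrays, with times at equal spacing. Colours are probe sets, symbols are replicates as in the other plots and lines join the means; black is the used probe set. The used probe sets differ from 0 d by 0.24 to 0.78 at 3 d, 5 unused ones of the same genes climb by 2.48 to 3.64, and the other 7 lie between -0.20 and 1.58.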

How the data were processed

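Total RNA of 33 mouse livers was extracted with Trizol, labelled with biotin and hybridised to Affymetrix mouse arrays, per the labels' protocols. The deposited values are log2 signals that the authors made with RMA, as the submitters' processing notes name it; its version is not given in the sources used here. Because RMA brings all arrays to like distributions, a change shared by most genes is not seen. Array medians lay between 5.32 and 5.38, no arrays were identical, and the number of arrays limits the precision. Of 45101 probe sets, 34945 had 1 symbol, 932 had several and were not used, and 64 were controls. The test kept genes that reached a log2 value of 5 on 3 arrays and dropped 4551. A mean per time was fitted with limma 3.58.1 in R 4.3.3 (22 residual and 3.69 prior degrees of freedom), and p-values are two-sided. They set each difference against the spread between arrays of the same time, pooled over all times. With 1 array per liver this spread holds both liver and array variation. The steps were tested on simulated data. Plots used matplotlib 3.10.9 in Python 3.11.15.

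The members, lists and tests were chosen with earlier results of these data known. Any member could be named. Values of every array are given, per role, for the member with the largest difference, for members that missed the threshold at 2 d, and for some with another time of highest mean or on which a result turned. Other lists name at most 3 genes. Same-numbered arrays of different times correlated at -0.353 to 0.389 (median 0.018), and 1 of 55 pairs of times had every correlation over 0.1, so replicate numbers were not taken to pair livers. Alternatives were other filters, averaging all probe sets per gene, quantile normalization, median shifts, a robust prior that follows intensity, array weights, a replicate block, fits of only the arrays compared, a joint adjustment and leaving out each array. A filter on the arrays other than 2 d and 3 d, all probe sets, and leaving out 2 d replicate 2 throughout were chosen after seeing the data. Of the listed genes of other cell types Mpo, Slc4a1, Hemgn, Ms4a1, Ncr1 and Lep did not pass the filter.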

Additional observations from a re-analysis of the deposited data

Results flagged for a closer look

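Probe sets of members that the choice of the brightest probe set leaves out rose at 3 d over 0 d where the used probe set moved little. On the log2 scale the differences were 3.64 for Cdc20 probe set 1416664_at, 3.62 for Cdc20 probe set 1439377_x_at, 2.48 for Incenp probe set 1439436_x_at, 3.39 for Kif2c probe set 1437611_x_at and 3.21 for Tpx2 probe set 1428104_at. The used probe sets of the same genes differed by 0.44, 0.26, 0.78 and 0.24 in that order of genes. The other 7 unused probe sets of these genes differed by -0.20 to 1.58.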

How the results depend on the processing

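Leaving out each array in turn gave 37 to 39 members higher at 3 d and 38 to 41 at 2 d, and 40 to 41 that varied. Ranges were wider elsewhere: 7 to 16 lower at 0.25 d, 4 to 18 at 0.5 d, 2 to 12 at 0.75 d and 1 to 5 at 1 d, 9 to 32 higher at 1.5 d, 0 to 28 at 4 d and 0 to 0 at 7 d and 14 d. Between times they were 8 to 34 higher from 1 d to 1.5 d, 2 to 39 from 1.5 d to 2 d, 0 to 10 lower from 2 d to 3 d, 12 to 37 from 3 d to 4 d, 0 to 20 from 4 d to 7 d, and 0 to 2 for 1.5 d against the mean of 1 d and 2 d. The upper end came without 2 d replicate 2 in all but 7 d, 14 d and the count that varied. The difference of Pbk between 2 d and 3 d ran from -0.88 to 0.70 and turned sign without that array. A filter at a log2 value of 7 left 24 members, with 14 higher at 1.5 d, 23 at 2 d, 23 at 3 d and 24 that varied. Array weights gave 9 lower at 0.75 d, 3 at 1 d, 20 higher at 4 d, 33 from 1 d to 1.5 d, 39 from 1.5 d to 2 d, 6 lower from 2 d to 3 d and 11 from 4 d to 7 d. With only the arrays compared these were 12, 3, 17, 32 and 0, then 11 lower from 4 d to 7 d, and 25 were higher at 2 d. Joint adjustment gave 18 higher at 4 d and 1 at 14 d. Averaging all probe sets per gene turned Tpx2 to -0.011 at 0.5 d and -0.083 at 0.75 d. A filter on the arrays other than 2 d and 3 d, chosen after seeing the data, kept 37 members, of which 35 were higher at 2 d and 34 at 3 d. Replicate numbers are not known to pair the livers. Of 33 arrays 15 correlated best with their own number, which cannot exclude pairing. A replicate block gave 39 higher at 2 d, 38 at 3 d, 24 at 1.5 d and 8 at 4 d. From 1.5 d to 2 d it gave 21. The cause of these changes was not tested, except that fewer members were tested under the filter at 7. Testing with no filter, averaged probe sets, quantile normalization, median shifts or a prior that follows intensity kept each of these counts within 1.5 times. Where the 0 d signal is low, as for Bub1 and Kif20b, a fall is hard to measure.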
